A study of Mus musculus with 6 samples.

Results

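The 6 genes described here are Cd74 and the MHC class II genes H2-Aa, H2-Ab1, H2-Eb1, H2-DMa and H2-DMb1. They were taken by name from the 13278 genes of the expression tables, and all 6 were found. RNA had been measured in 497 single blood-forming stem and progenitor cells from C57BL/6 mice, in 6 libraries of 1 per group, by a modified Smart-seq2 protocol that copies the RNA of a sorted cell and here enriches the 3′ ends.

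The HPC1 library (82 cells) mixed CD201+CD48- and CD48+ cells of the gate HPC1, a progenitor gate, and the HSC1 library (84 cells) mixed the same fractions of HSC1, a stem cell gate. Both are labelled spleen, whereas the series title speaks of bone marrow, and the other 4 libraries are labelled bone marrow. The HSC2/MPP4 library (89 cells) mixed CD48+ HSC2, a further stem cell gate, with MPP4, a multipotent progenitor gate. The CD48-negative HSC2 library (86 cells) mixed CD201+ and CD201- cells of that gate. The MPP2-containing library, called the MPP2 mix (80 cells), held MPP2 together with CD201-CD48- HPC1 and the CD48+ fractions of HSC1 and of HPC1, and the double-negative library (76 cells) held CD201-CD48- HSC1 and HPC1. Labels give 8 weeks and total RNA for the HSC2 libraries, and 8 to 10 weeks and polyA RNA for the other 4, with no treatment or transgene in any. The number of mice is not given, no column name ties a cell to a gate, and each difference below is between single libraries, with no replicate check and no test.

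Class II molecules are pairs of an alpha and a beta chain that display peptides of endocytosed proteins to CD4+ T cells. Cd74 encodes the invariant chain, which fills the groove of new pairs, leads them to endosomes and at the cell surface serves as a receptor of the cytokine MIF. H2-Aa and H2-Ab1 encode the chains of I-A, and H2-Eb1 encodes the beta chain of I-E, whose alpha chain gene is defective in C57BL/6 mice. H2-DMa and H2-DMb1 encode H2-DM, which removes the last piece of the invariant chain so that a peptide can bind. Dendritic cells, B cells and macrophages are the classical bearers of class II, and some stem and progenitor cells also carry it.

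Class II promoters are known for an X box, bound by RFX, and a Y box, bound by NF-Y, onto which the coactivator CIITA is recruited. On GRCm38 the annotation GENCODE vM21 places 5 of the genes on chromosome 17, all protein-coding. H2-DMa spans 34119541 to 34139101, H2-DMb1 34153072 to 34160230, H2-Ab1 34257689 to 34269419 and H2-Eb1 34305867 to 34316674, all on the plus strand, and H2-Aa spans 34282744 to 34287823 on the minus strand. RefSeq promoters of build GRCm38.p6 were at hand for 4 members, H2-Aa, H2-Eb1, H2-DMa and H2-DMb1. Stretches of 3 are printed because they hold the boxes of genes whose levels follow. Capitals mark the X box core, AGNNAC followed at once by NGATG, and the Y box core GATTGG. Both were searched on both strands, and no X match overlaps a Y match in the stretches shown.
H2-Aa, chr17:34287824-34287943, minus strand, last 120 bases before the start: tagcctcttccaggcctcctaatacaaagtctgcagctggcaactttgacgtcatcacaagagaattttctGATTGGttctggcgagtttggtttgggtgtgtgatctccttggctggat
H2-Eb1, chr17:34305747-34305866, plus strand, last 120 bases before the start: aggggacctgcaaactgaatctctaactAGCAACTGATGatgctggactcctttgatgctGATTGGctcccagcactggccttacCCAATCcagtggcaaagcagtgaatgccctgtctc
H2-DMb1, chr17:34153089-34153118, plus strand, 30 bases around the X box core, inside a GENCODE exon of the gene: tttacctAGTAACTGATGatgctaggctga

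The X box core was found in the promoters of H2-Eb1 and H2-DMb1, where its first base lay 92 and 95 bases before the RefSeq start. A Y box core followed it by 32 bases in H2-Eb1 and by 33 bases in H2-DMb1, counted between first bases. H2-Eb1 carried a further Y box core on the opposite strand, seen in capitals as its reverse complement CCAATC. H2-Aa had a match to the Y box core alone, 49 bases before its start. The search took only the letters given, so a box that departs from them is missed, and a promoter without a match need not lack the box. Of the 2 promoters that RefSeq lists for H2-DMa, 1 held a Y box core and neither held an X box core. Cd74 lies apart from these genes, on chromosome 18 between 60803848 and 60812652, plus strand. Among all 32851 promoters of the same 300 bases, the X box core was present in 0.968%, the Y box core in 16.1% and both in 0.149%.

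Each level pools the cells of a library: it is the gene's counts per 1000000 counts of all genes (CPM), with an exact 95% Poisson interval. The counts were recovered from deposited scores. For shares of cells, 10000 counts were drawn from each cell, and Clopper-Pearson intervals are exact. All intervals hold the error of counting alone and leave out the spread between cells. Median counts per cell were lowest in CD48-negative HSC2 (23540) and highest in the MPP2 mix (145496.5), and library totals lay between 2778858 and 15019501. In a pooled level, fewer cells with a transcript and less transcript per cell cannot be told apart. Transcript length and the 3′ protocol affect each gene differently, so levels are compared between libraries and not between genes.

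Cd74 was highest in CD48-negative HSC2 and lowest in the double-negative library. It stood at 67.3 CPM (62.6 to 72.2) in HPC1, 83.7 (76.8 to 91.0) in HSC1, 124 (113 to 135) in HSC2/MPP4, 169 (154 to 185) in CD48-negative HSC2, 68.2 in the MPP2 mix (64.1 to 72.6) and 7.99 (6.33 to 9.96) in the double-negative library. The intervals of HPC1 and the MPP2 mix overlap, and those of the other neighbours in this order do not. After thinning, Cd74 was counted in 25.9% of HPC1 cells (21 of 81, 16.8 to 36.9%) and 35.0% of HSC1 cells (28 of 80, 24.7 to 46.5%). The share was 19.8% of HSC2/MPP4 cells (16 of 81, 11.7 to 30.1%) and 24.2% of CD48-negative HSC2 cells (16 of 66, 14.5 to 36.4%). The share was 8.8% of cells in the MPP2 mix (7 of 80, 3.6 to 17.2%) and 5.3% in the double-negative library (4 of 75, 1.5 to 13.1%). Averaged over all possible draws of the thinning, the HSC1 and CD48-negative HSC2 shares were equal at 28.6%. By pooled level these libraries were about 2-fold apart, so no order is read from the shares. Without thinning, where deeper cells count more often, the shares were 53.7% of HPC1, 50% of HSC1, 29.2% of HSC2/MPP4, 29.1% of CD48-negative HSC2, 60.0% of MPP2 mix and 27.6% of double-negative cells.

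The pooled levels of Cd74 rested on few cells. A single cell held 81.1% of its counts in the MPP2 mix, 39.0% in HSC2/MPP4, 29.0% in CD48-negative HSC2, 28.4% in HPC1, 17.7% in the double-negative and 16.6% in the HSC1 library. Without each library's highest cell, Cd74 stood at 48.7 CPM in HPC1, 71.0 in HSC1, 75.6 in HSC2/MPP4, 122 in CD48-negative HSC2, 13.2 in the MPP2 mix and 6.65 in double-negative cells. The double-negative library was again the lowest, and the MPP2 mix then stood next to it.

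H2-Aa and H2-Ab1, the chains of I-A, stood higher in HSC1 and both HSC2 libraries than in the other 3 when all cells were pooled. H2-Aa stood at 81.6 CPM in HPC1, 159 in HSC1, 105 in HSC2/MPP4, 118 in CD48-negative HSC2, 49.3 in the MPP2 mix and 50.2 in double-negative cells. Its intervals overlapped between HSC2/MPP4 (94.9 to 115) and CD48-negative HSC2 (105 to 131), and between the MPP2 mix (45.8 to 53.0) and the double-negative library (45.9 to 54.8). H2-Ab1 stood at 67.4 CPM in HPC1, 139 in HSC1, 147 in HSC2/MPP4, 158 in CD48-negative HSC2, 78.4 in the MPP2 mix and 40.8 in double-negative cells. The HSC1 interval (129.6 to 148) overlapped that of HSC2/MPP4 (136 to 159.8), which overlapped that of CD48-negative HSC2 (143 to 173). The double-negative cells were lowest for H2-Ab1, and the MPP2 mix and the double-negative cells for H2-Aa. HSC1 held the highest level of H2-Aa, although 37.5% of its counts there came from 1 cell, and without that cell the level was 101 CPM. The HSC2/MPP4 levels rested on 2 cells with dendritic markers, described further on. Without them H2-Aa stood at 34.5 CPM there, below the double-negative level. H2-Ab1 stood at 68.5 CPM (60.5 to 77.2), below that of the MPP2 mix with all its cells. Without a cell with B cell markers, also described further on, H2-Ab1 in the MPP2 mix was 54.6 CPM (50.8 to 58.5), below HSC2/MPP4. All these cells were picked partly by their summed level of Cd74, H2-Aa, H2-Ab1 and H2-Eb1, so leaving them out lowers these levels.

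H2-Eb1, the beta chain of I-E, had the same highest and lowest libraries as Cd74. It stood at 47.3 CPM in HPC1, 45.3 in HSC1, 80.0 in HSC2/MPP4, 93.2 in CD48-negative HSC2, 66.4 in the MPP2 mix and 13.2 in double-negative cells. The intervals of HPC1 (43.4 to 51.5) and HSC1 (40.3 to 50.8) overlapped, as did those of HSC2/MPP4 (71.4 to 89.4) and CD48-negative HSC2 (82.2 to 105). A single cell held 60.5% of its counts in the MPP2 mix and 52.7% in HSC1. Without the 2 cells with dendritic markers the HSC2/MPP4 level was 12.1 CPM, whose interval (8.89 to 16.1) holds the double-negative level. These cells were picked partly by a sum that includes H2-Eb1, and no double-negative cell was left out. No likeness of the 2 libraries is therefore read from this. After thinning H2-Eb1 was counted in 21.2% of CD48-negative HSC2 cells, against 4.0% of double-negative cells.

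The H2-DM genes behaved differently from the other 4, with narrow ranges over the libraries. H2-DMa stood at 229.8 CPM in HPC1, 269.8 in HSC1, 347 in HSC2/MPP4, 398 in CD48-negative HSC2, 238 in the MPP2 mix and 256 in double-negative cells. H2-DMb1 stood at 43.6 CPM in HPC1, 52.1 in HSC1, 60.7 in HSC2/MPP4, 72.0 in CD48-negative HSC2, 42.2 in the MPP2 mix and 53.8 in double-negative cells. The intervals of HSC2/MPP4 (329 to 366) and CD48-negative HSC2 (375 to 422) stood apart for H2-DMa, and for H2-DMb1 every pair of neighbours in the order overlapped. H2-DMa was counted in 68.0 to 92.6% of the thinned cells of a library, and its highest cell held at most 9.6% of its counts. H2-DMb1 was counted in 22.5 to 42.0% of thinned cells, and its highest cell held at most 19.8%. H2-DMb1 has a near-identical copy, H2-DMb2, so its counts are uncertain by any reads the counting gave to the wrong copy. H2-DMb2 stood at 0.261 CPM in HPC1 and at most 14.4 CPM, in CD48-negative HSC2. In the annotation the first 360 exon bases of H2-DMa also belong to Brd2 on the opposite strand, 19201 bases from the 3′ end of H2-DMa. The labels do not say whether counting used strand, so reads of that stretch cannot be told apart.

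**Figure D1:**
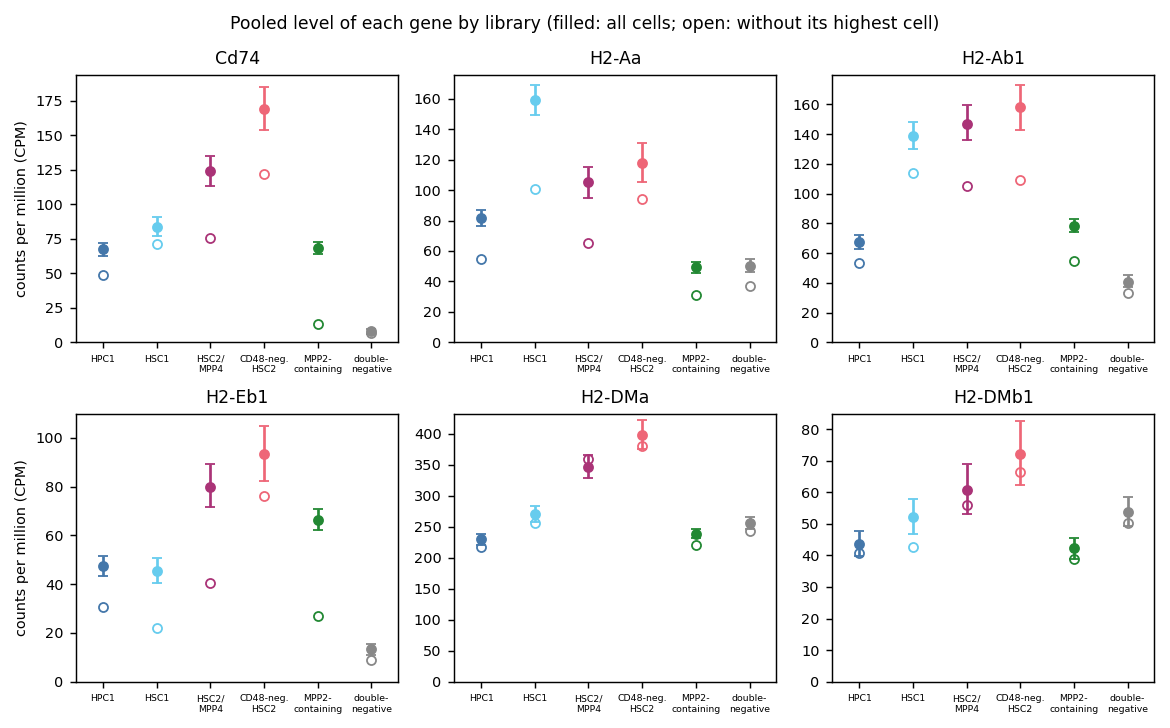
Pooled level in CPM (vertical axis, from 0) of each of the 6 genes in each library (horizontal axis); filled points are all cells with exact 95% Poisson intervals, and open points leave out the cell with the most counts of that gene. Cd74 in the MPP2 mix stood at 68.2 CPM with all cells and 13.2 without 1 cell, whereas H2-DMa stood at 238 and 220.3 there.

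The deposited scores, which are scaled to mean 0 and SD 1 for each gene over all cells, gave the same lowest library for Cd74. Its mean score was 0.11 in HPC1, 0.16 in HSC1, -0.02 in HSC2/MPP4, 0.12 in CD48-negative HSC2, -0.09 in the MPP2 mix and -0.31 in double-negative cells. The scores weigh each cell on a log scale, and on that scale HSC1 was the highest library.

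Within a library, the classical chain genes and Cd74 were counted in the same cells more often in some libraries than in others. All 4 of Cd74, H2-Aa, H2-Ab1 and H2-Eb1 were counted after thinning in 5 of 81 HPC1 cells and 3 of 80 HSC1 cells. All 4 were counted in 5 of 81 HSC2/MPP4 cells and 9 of 66 CD48-negative HSC2 cells. In the MPP2 mix 1 of 80 cells had all 4, and in the double-negative library 0 of 75 had, which allows a share of up to 4.0%. None of the 4 genes was counted in 49.4% of HPC1, 38.8% of HSC1, 49.4% of HSC2/MPP4, 57.6% of CD48-negative HSC2, 56.2% of MPP2 mix and 62.7% of double-negative cells. CD48-negative HSC2 thus combined the second largest share with none of the genes and the largest with all 4.

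**Figure D2:**
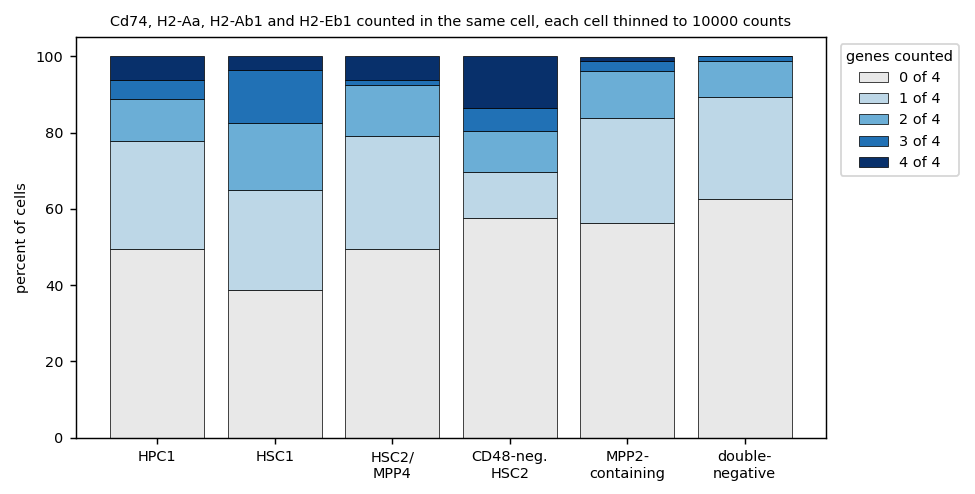
Percent of cells (vertical axis) in which 0 to 4 of Cd74, H2-Aa, H2-Ab1 and H2-Eb1 were counted, by library (horizontal axis), after each cell was thinned to 10000 counts. The darkest segment, all 4 genes, holds 13.6% of CD48-negative HSC2 cells and 0.0% of double-negative cells.

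Spearman's rank correlation between members over the cells of a library after thinning differed likewise between libraries. It is a description, over cells that share a library. The correlation of Cd74 with H2-Aa was 0.36 in HPC1, 0.57 in HSC1, 0.32 in HSC2/MPP4, 0.61 in CD48-negative HSC2, 0.04 in the MPP2 mix and -0.11 in double-negative cells. That of Cd74 with H2-Eb1 reached 0.79 in CD48-negative HSC2 and was -0.05 in the double-negative library. Averaged over the 6 libraries, the correlation was 0.46 for H2-Aa with H2-Eb1, 0.41 for H2-Aa with H2-Ab1 and 0.37 for H2-Ab1 with H2-Eb1. H2-DMa had a mean correlation between -0.02 and 0.09 with Cd74, H2-Aa, H2-Ab1 and H2-Eb1, and H2-DMb1 between 0.07 and 0.14. These means cover values of both signs in single libraries. The correlation of H2-DMb1 with H2-Aa was 0.33 in HSC2/MPP4 and -0.24 in the MPP2 mix, and that of H2-DMa with H2-Ab1 was 0.29 in HSC2/MPP4 and -0.16 in the MPP2 mix.

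The summed level of Cd74, H2-Aa, H2-Ab1 and H2-Eb1 differed widely between cells. Its median over cells was 63.3 CPM in HPC1, 121 in HSC1, 79.8 in HSC2/MPP4, 0 in CD48-negative HSC2, 50.3 in the MPP2 mix and 20.6 in double-negative cells. The highest cell reached 5861 CPM in HPC1, 5187 in HSC1, 66057 in HSC2/MPP4, 8661 in CD48-negative HSC2, 5569 in the MPP2 mix and 843 in double-negative cells. A sum of at least 1000 CPM was found in 6 of 82 HPC1, 12 of 84 HSC1, 6 of 89 HSC2/MPP4, 13 of 86 CD48-negative HSC2, 1 of 80 MPP2 mix and 0 of 76 double-negative cells. This bound cuts a continuous range and was set after the values were seen, and 5 cells of HSC1 and 4 of CD48-negative HSC2 lay between 1000 and 1250 CPM. The cells above it held 62.4% of the library's counts of the 4 genes in HPC1, 70.3% in HSC1, 73.3% in HSC2/MPP4 cells and 83.7% in CD48-negative HSC2. The rank correlation between this sum and the total count of the cell lay between -0.16 and 0.13 in the 6 libraries.

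**Figure D3:**
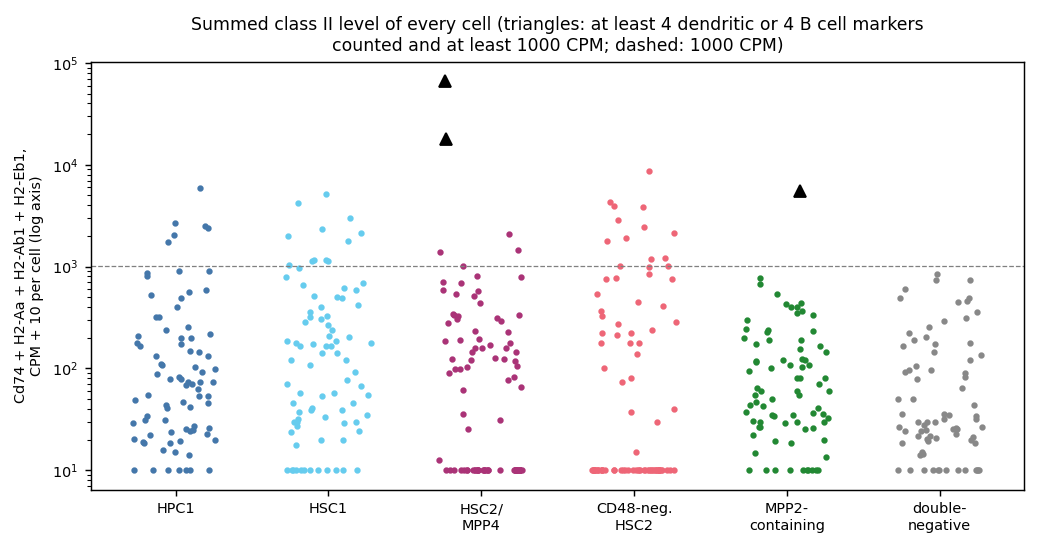
Summed level of Cd74, H2-Aa, H2-Ab1 and H2-Eb1 of every cell as CPM + 10 on a log axis (vertical), by library (horizontal axis). Black triangles are the 3 cells with at least 1000 CPM and at least 4 dendritic or 4 B cell markers counted, 2 of them in HSC2/MPP4 and 1 in the MPP2 mix.

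Markers of the classical class II bearers stood apart in 3 cells. In HSC2/MPP4, the highest cells by this sum, with 66057 and 18027 CPM, each had counts of 5 of 8 dendritic markers. Each also had counts of 4 of 13 macrophage and monocyte markers. The latter summed to 3179 and 1464 CPM in the 2 cells, against 656 CPM in the library without both cells. Cst3, a protease inhibitor abundant in dendritic cells, had 287 and 241 counts in them (28509 and 8603 CPM), against 604 CPM in the library without the first. Clec9a, a receptor of a dendritic subset, had 2 and 3 counts, and Irf8, a transcription factor of that lineage, 32 and 24. The stem cell genes Procr, Mecom, Hlf and Ly6a were at 0 counts in both, which allows up to 298 CPM in the first and 107 CPM in the second. These 2 cells held 64.7% of the library's Cd74 counts, 67.4% of H2-Aa, 54.0% of H2-Ab1 and 85.0% of H2-Eb1, but 2.1% of H2-DMa. Without them, Cd74 stood at 44.0 CPM (37.7 to 51.1) in HSC2/MPP4, H2-Aa at 34.5, H2-Ab1 at 68.5 and H2-Eb1 at 12.1 (8.89 to 16.1).

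In the MPP2 mix the highest cell had counts of all 5 recovered B cell markers. It held 199 of the library's 291 counts of Igkc, the kappa light chain constant gene, and 41 of 54 of Vpreb3. It also held 831 of 1025 Cd74 counts, 603 of 997 H2-Eb1 counts and 95 of 118 H2-DMb2 counts, together with 3974 counts of the platelet chemokine Pf4. Without it, Cd74 stood at 13.2 CPM (11.5 to 15.3) in the MPP2 mix and H2-Eb1 at 26.9 (24.3 to 29.7). Over whole libraries the 5 B cell markers summed to 60.7 CPM in HPC1, 57.3 in HSC1, 58.4 in HSC2/MPP4, 75.9 in CD48-negative HSC2, 83.3 in the MPP2 mix and 64.1 in double-negative cells. Igkc was at 0 counts in both HSC2 libraries. The 8 dendritic markers summed to 673 CPM in HPC1, 784 in HSC1, 936 in HSC2/MPP4, 818 in CD48-negative HSC2, 717 in the MPP2 mix and 762 in double-negative cells. Itgax was at 0 in HPC1, HSC1, the MPP2 mix and the double-negative library, and Clec9a in CD48-negative HSC2, the MPP2 mix and the double-negative library. The 13 macrophage and monocyte markers summed to 1151 CPM in HPC1, 680.0 in HSC1, 668 in HSC2/MPP4, 1471 in CD48-negative HSC2, 759.9 in the MPP2 mix and 833 in double-negative cells. Few genes dominated these sums. Lyz2 made up 3800 of 4087 such counts in CD48-negative HSC2 and 12246 of 13208 in HPC1. In double-negative cells Cst3 held 5715 of 7536 dendritic counts and Cd79b 604 of 634 B cell counts. There Lyz2 and Cst3 were counted in all 76 cells and Cd79b in 46, so the sums do not measure how many cells of these types were present. With all cells the B cell sum was highest in the MPP2 mix and the dendritic sum in HSC2/MPP4, and both places rested on the 3 cells. Without its cell the B cell sum of the MPP2 mix was 56.5 CPM, the lowest of the 6, and without its 2 cells the dendritic sum of HSC2/MPP4 was 804 CPM, below that of CD48-negative HSC2. The part of such cells in the other libraries was not tested.

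In HPC1, HSC1 and CD48-negative HSC2 the class II-rich cells carried stem cell genes, as most other cells did. All 6 rich HPC1 cells, all 12 of HSC1 and all 13 of CD48-negative HSC2 had counts of at least 4 of 10 stem cell markers, as had 72 of the other 76 HPC1 cells, 69 of 72 in HSC1 and 62 of 73 in CD48-negative HSC2. The median number of these markers counted was the same in rich and other cells, at 7 in HPC1, 7 in HSC1 and 6 in CD48-negative HSC2. None of the rich cells had 4 dendritic or 4 B cell markers counted. Procr, which encodes the sorting antigen CD201, had a median over cells of 319.5 CPM in the rich HPC1 cells, against 3.83 CPM in the other HPC1 cells. The medians were 70.7 CPM in rich and 22.9 CPM in other HSC1 cells, and 224 CPM in rich and 35.1 CPM in other CD48-negative HSC2 cells. Hlf, a transcription factor of stem cells, had medians of 226 CPM in rich and 33.1 CPM in other HPC1 cells, 291 CPM in rich and 197 CPM in other HSC1 cells, and 504 CPM in rich and 246 CPM in other CD48-negative HSC2 cells. Ly6a, the Sca-1 gene, had medians of 470.3 CPM in rich and 30.9 CPM in other HPC1 cells, and 649 CPM in rich and 362 CPM in other CD48-negative HSC2 cells. The quartile ranges of rich and other cells overlapped for these genes in each of the 3 libraries, except for Procr in HPC1. For Procr in HPC1 they ran from 165 to 357 CPM in rich and 0 to 117 CPM in other cells, and for Hlf from 138 to 303 CPM in rich and 5.17 to 264 CPM in other cells. For Hlf in CD48-negative HSC2 they ran from 288 to 537 CPM in rich and 104 to 498 CPM in other cells. In HSC2/MPP4 the median of the summed stem cell markers was 268 CPM in the rich cells and 751 CPM in the others. Procr was at 0 counts there in all 6 rich cells and in 59 of 83 others. These 6 cells include the 2 with dendritic markers, and they were shallower, with a median of 19087.5 counts against 37308. Pooled over cells, Hlf stood at 69.2 CPM in rich and 128 CPM in other HSC2/MPP4 cells, but Ly6a at 256 and 258 CPM.

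**Figure D4:**
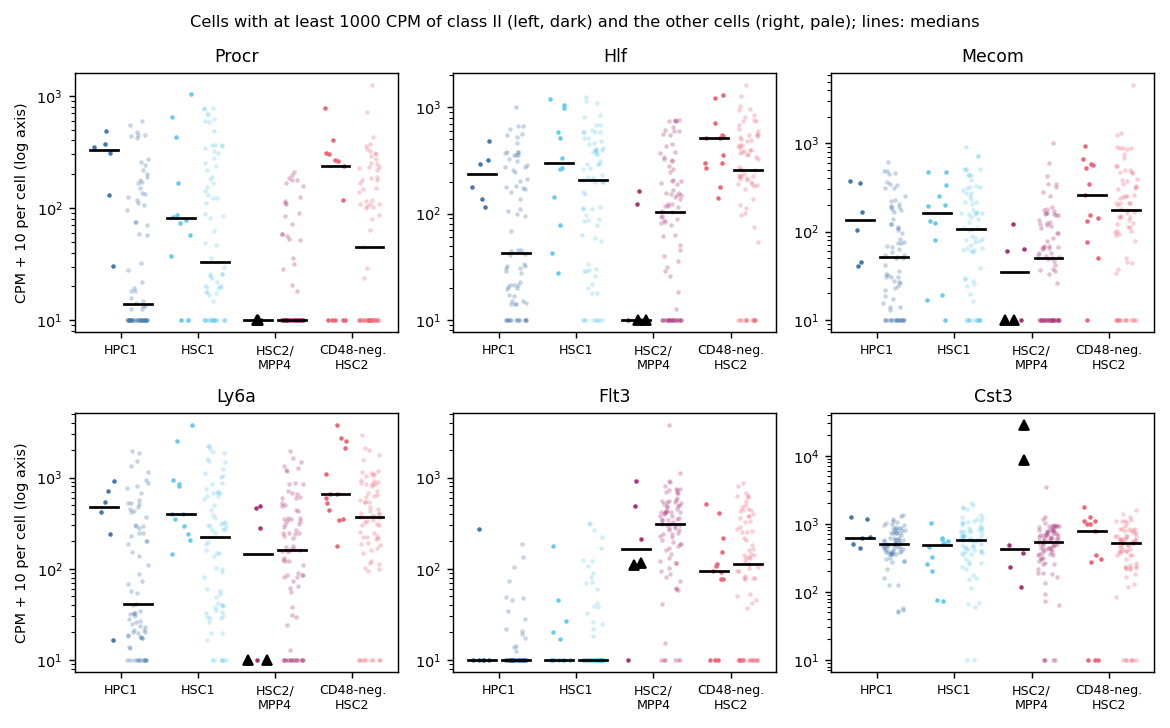
Levels of 6 marker genes in single cells as CPM + 10 on log axes (vertical), for cells with at least 1000 CPM of class II (dark, left) and the other cells (pale, right) of 4 libraries (horizontal axis), with medians as lines. Black triangles are the 2 HSC2/MPP4 cells with 5 dendritic markers, which stand highest for Cst3 and at 0 counts for Procr, Hlf, Mecom and Ly6a.

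HPC1 was set against HSC1 because the same CD201 and CD48 fractions were mixed in both. The chains of I-A were lower in HPC1: H2-Aa stood at 81.6 CPM in HPC1 and 159 CPM in HSC1, and H2-Ab1 at 67.4 and 139 CPM. Ratios are on the log2 scale after 10 CPM was added to both levels, so that they understate differences of scarce genes, and 2-fold is the bound for a count. The log2 ratio was -0.88 for H2-Aa, -0.94 for H2-Ab1, -0.28 for Cd74, 0.05 for H2-Eb1, -0.22 for H2-DMa and -0.21 for H2-DMb1. No member was 2-fold higher, where 1.88% of the 11996 genes were, and none 2-fold lower, where 1.99% were. The median over the 6 members was -0.25, against 0.00 over all genes. Markers of other lineages differed more: 6 of 7 megakaryocyte and platelet markers were 2-fold higher in HPC1, with a summed level of 3577 CPM in HPC1 and 287 CPM in HSC1, and Pf4 at 2709 and 103 CPM. Of 8 lymphoid progenitor markers, 4 were 2-fold lower, with a sum of 329 CPM in HPC1 and 711 CPM in HSC1. Of 10 stem cell markers, Ly6a was 2-fold lower. The part of these cell types in the class II levels was not tested.

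Among other genes of the pathway, 1 of 3 further class II genes was 2-fold lower in HPC1, namely H2-Ob. H2-Ob, the beta chain of H2-DO, which restrains H2-DM, stood at 19.3 CPM in HPC1 and 54.4 CPM in HSC1. Ctss, the cathepsin that trims the invariant chain, stood at 8.37 CPM in HPC1 and 33.6 CPM in HSC1. Cd86, a costimulatory ligand, stood at 2.09 and 14.5 CPM, and without 1 cell that held 58.5% of its HSC1 counts the HSC1 level was 6.25 CPM. March8, a ubiquitin ligase of membrane proteins, went the other way, at 17.2 CPM in HPC1 and 1.23 CPM in HSC1. Of 10 regulators and 12 interferon gamma response genes none passed 2-fold in either direction, and 1 of those 12 had a ratio above 0.

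The MPP2 mix was compared with the double-negative cells, since both are labelled bone marrow and share CD201-CD48- HPC1 cells. Cd74 and H2-Eb1 were 2-fold higher with all cells, at 68.2 against 7.99 CPM (log2 ratio 2.12) and at 66.4 against 13.2 CPM (1.72). H2-Ab1 stood at 78.4 and 40.8 CPM (0.80), H2-Aa at 49.3 and 50.2 CPM (-0.02), H2-DMa at 238 and 256 CPM (-0.10) and H2-DMb1 at 42.2 and 53.8 CPM (-0.29). Thus 2 of 6 members were 2-fold higher, where 2.01% of all genes were, and none was 2-fold lower, where 2.03% were. Without the 1 cell with B cell markers the ratio was 0.37 for Cd74 and 0.67 for H2-Eb1, and no member passed 2-fold. The members' median was 0.39, against -0.01 over all genes. Of the 10 stem cell markers, 6 were 2-fold lower, with a sum of 642 CPM in the MPP2 mix and 1331 CPM in double-negative cells. Of 7 megakaryocyte and platelet markers, Pf4 was 2-fold higher with all cells. The cell with B cell markers held 3974 Pf4 counts, and the other 79 cells of the MPP2 mix held 9475. The part of stem cells and of megakaryocyte-like cells was not tested. H2-Ob was 2-fold higher, at 43.3 CPM in the MPP2 mix and 10.9 CPM in the double-negative library, and no cell held more than 14.3% of its counts in the MPP2 mix. Irf8 was 2-fold lower, at 5.26 CPM in the MPP2 mix and 22.3 CPM in double-negative cells, as were March8, at 2.26 and 15.6 CPM, and Gbp7, an interferon-induced GTPase, at 46.4 and 112 CPM. Without 1 cell the double-negative level of March8 was 10.4 CPM, which is within 2-fold after 10 CPM was added.

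HSC2/MPP4 was set against CD48-negative HSC2, which come from the same kind of deposit and differ in CD48 and in the MPP4 gate. Cd48 itself stood at 173 CPM in HSC2/MPP4, against 9.36 CPM in CD48-negative HSC2. All 6 members were lower in HSC2/MPP4 by pooled counts and none passed 2-fold, though the sign of each turned under at least 1 setting tried. The members had log2 ratios of -0.42 for Cd74, -0.15 for H2-Aa, -0.09 for H2-Ab1, -0.20 for H2-Eb1, -0.19 for H2-DMa and -0.21 for H2-DMb1. In this comparison 1.87% of all genes were 2-fold higher and 3.32% were 2-fold lower, and the median of all genes was -0.04. The small ratios depend on the 2 cells with dendritic markers. Without them, 4 of 6 members were 2-fold lower, with -1.73 for Cd74, -1.52 for H2-Aa, -1.10 for H2-Ab1 and -2.22 for H2-Eb1. These cells were picked partly by a class II sum of at least 1000 CPM. No cell was left out of CD48-negative HSC2, where 13 cells passed that bound, so a lower class II sum in HSC2/MPP4 was fixed in advance. H2-DMa (-0.21) and H2-DMb1 (-0.29) stayed under 2-fold. Leaving out each gene's highest cell in both libraries gave -0.62 for Cd74, -0.46 for H2-Aa, -0.04 for H2-Ab1 and -0.76 for H2-Eb1, and no member passed 2-fold. From the mean of per-cell CPM, which gives each cell equal weight, and with all cells kept, the Cd74 ratio was 0.98. Stem cell markers were lower in the same comparison, 7 of 10 of them 2-fold, with a sum of 675 CPM in HSC2/MPP4 and 1948 CPM in CD48-negative HSC2. Of 8 lymphoid progenitor markers 2 were 2-fold higher, with sums of 1692 and 1145 CPM, and of 7 megakaryocyte and platelet markers 3 were 2-fold lower, with sums of 28.8 and 165 CPM. The part of these cells was not tested.

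The interferon gamma response list was lower in HSC2/MPP4 as well: 5 of 12 genes were 2-fold lower and 0 higher. Irgm1, a GTPase of cell-autonomous immunity, stood at 58.4 CPM in HSC2/MPP4, against 167 CPM in CD48-negative HSC2, and Gbp2 at 22.4 and 71.3 CPM. Igtp, Gbp7 and Iigp1 had log2 ratios of -1.03, -1.10 and -1.12, and the median of the 12 was -0.71. Igtp stood at 31.6 and 75.2 CPM, and at 28.9 and 59.2 CPM without the highest cell of each library, which is within 2-fold after 10 CPM was added. Irf8 was the 1 of 10 regulators that was 2-fold higher, at 222 CPM in HSC2/MPP4 and 11.2 CPM in CD48-negative HSC2, and 32.8% of its HSC2/MPP4 counts came from 1 cell. H2-Ob was 2-fold higher, at 121 and 52.2 CPM, and was counted in 48 of 81 thinned HSC2/MPP4 cells and 21 of 66 CD48-negative HSC2 cells. Ctsl, a cathepsin, was 2-fold lower, at 33.4 and 80.6 CPM.

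CD48-negative HSC2 was set against the double-negative library, since both were sorted without CD48. These libraries differ in deposit, in the RNA named on the labels and in depth, which cannot be told apart from the gates. Cd74 stood at 169 CPM in CD48-negative HSC2 and 7.99 CPM in the double-negative library, a plain ratio of 21.1 (16.6 to 27.2) and a log2 ratio of 3.31. H2-Eb1 stood at 93.2 and 13.2 CPM (2.16), H2-Ab1 at 158 and 40.8 CPM (1.72) and H2-Aa at 118 and 50.2 CPM (1.09). H2-DMa at 398 and 256 CPM (0.62) and H2-DMb1 at 72.0 and 53.8 CPM (0.36) did not pass 2-fold. Thus 4 of 6 members were 2-fold higher, where 4.30% of all genes were, and none was 2-fold lower, where 2.72% were. The members' median was 1.40, against 0.00 over all genes. Markers of several cell types moved alongside. Of 8 lymphoid progenitor markers 5 were 2-fold higher, with a sum of 1145 CPM in CD48-negative HSC2 and 561 CPM in double-negative cells. Of 13 macrophage and monocyte markers, Cd68, C1qa and Vcam1 were 2-fold higher, with Cd68 at 33.5 and 10.7 CPM, while Adgre1 and Cd14 were at 0 counts in CD48-negative HSC2. The stem cell markers Procr, at 115 and 23.9 CPM, Hlf and Ly6a were 2-fold higher, and Slamf1 was 2-fold lower. Of the 10 stem cell markers 5 had a log2 ratio above 0, and their median was 0.02. Of 7 megakaryocyte and platelet markers 5 were 2-fold lower, with sums of 165 and 755 CPM. The part of these cell types in the class II levels was not tested. All 6 ratios kept their sign under all settings tried. Without the highest cell of each gene in each library the ratios were 2.98 for Cd74, 2.18 for H2-Eb1, 1.46 for H2-Ab1 and 1.16 for H2-Aa. Taken as a mean over cells of log2 values, the Cd74 difference was 0.94 and no member passed 2-fold. The comparison shares a library with each of the preceding 2, so its values are not independent of theirs.

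**Figure D5:**
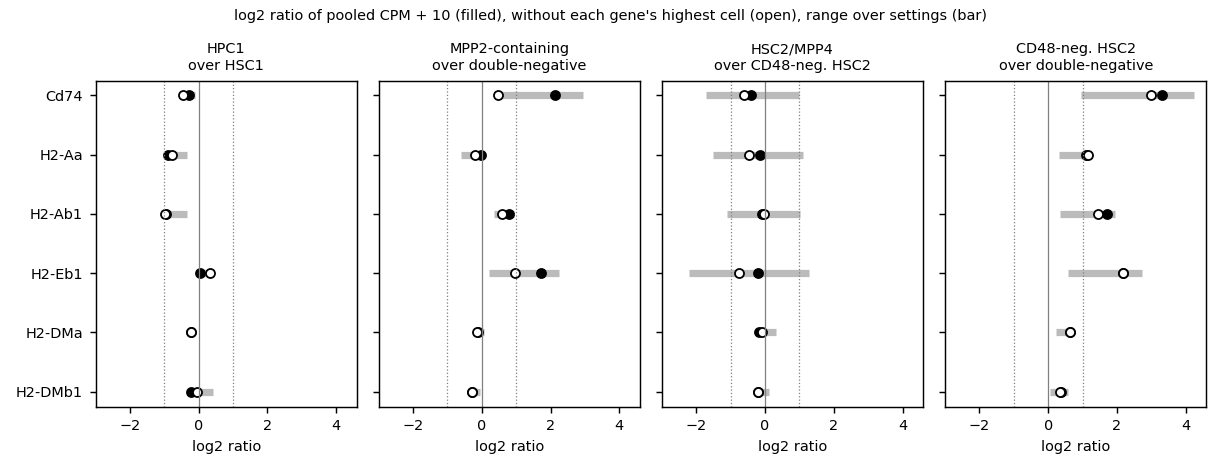
Log2 ratio of each gene (rows) in the 4 comparisons (panels), with 10 CPM added to each side: filled points are all cells, open points leave out each gene's highest cell in each library, and bars span all settings tried. Dotted lines mark 2-fold. In CD48-negative HSC2 over double-negative, Cd74, H2-Aa, H2-Ab1 and H2-Eb1 lie past 1 in both points, whereas in MPP2 mix over double-negative the open points lie under it.

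The transcript of Ciita, the class II coactivator, was counted in few cells of each library. It stood at 2.27 CPM in HPC1 (2 of 82 cells), 2.47 in HSC1 (4 of 84), 2.55 in HSC2/MPP4 (3 of 89), 1.80 in CD48-negative HSC2 (2 of 86), 0.732 in the MPP2 mix (2 of 80) and 0.607 in the double-negative library (3 of 76). In HSC1, 15 of its 16 counts lay in 3 of the 12 class II-rich cells, and in CD48-negative HSC2 3 of 5 lay in 1 rich cell. In HPC1 all 26 counts, held by 2 cells, lay outside the rich cells, which were 6 of 82. In the MPP2 mix all 11 counts, held by 2 cells, lay outside the 1 rich cell of 80. In HSC2/MPP4 1 of the 6 rich cells held 1 count (6.92 CPM, 0.175 to 38.6). There 2 of the 83 other cells held 9 counts (2.38 CPM, 1.09 to 4.52). With so few cells counted, no direction is read from these libraries. Over the 6 libraries the genes of the RFX complex had Rfx5 at 0.999 to 5.76 CPM, Rfxap at 8.28 to 21.7 CPM and Rfxank at 6.63 to 28.0 CPM. Spi1, which encodes the myeloid and lymphoid factor PU.1, stood at 332 CPM in CD48-negative HSC2 and 119 CPM in the double-negative library, and was the 1 of 10 regulators that was 2-fold higher there.

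Other genes around class II were mixed in CD48-negative HSC2 over double-negative. Ctss was 2-fold higher, at 64.8 and 19.5 CPM, as the 1 of 7 recovered processing genes. Cxcr4, a coreceptor of MIF, was 2-fold higher as 1 of 4 genes of the MIF and CD74 axis, at 17.3 and 2.73 CPM, and Cd44, the signalling partner of CD74, had a log2 ratio of 0.95. Of 9 recovered MHC class I genes, Tap2, a peptide transporter subunit, was 2-fold higher, at 219.5 and 70.3 CPM, and their median was -0.03. Of 12 interferon gamma response genes, Irf1 was 2-fold higher, at 151 and 66.3 CPM, and Gbp4, at 22.0 and 0.910 CPM. Without the highest cell of each library Irf1 stood at 128 and 62.0 CPM, within 2-fold after 10 CPM was added. H2-DMb2 was 2-fold higher, at 14.4 and 1.32 CPM, and H2-Ob, at 52.2 and 10.9 CPM.

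Genes with the most similar pattern over the libraries were ranked by Pearson's r between their log2(CPM + 10) and its mean over the 6 members. The ranking took in 4713 genes counted in at least 25% of thinned cells of 1 library. The 10 highest were Rnf41, Inpp5d, Trim35, Preb, Med25, Pdk1, Cyth4, Rnf138, Ankhd1 and Spop, with r from 0.952 to 0.976 over 6 points that also differ in depth and deposit. Rnf41 stood at 25.1 CPM in HPC1, 29.9 in HSC1, 34.7 in HSC2/MPP4, 52.5 in CD48-negative HSC2, 22.6 in the MPP2 mix and 11.4 in double-negative cells. Over cells, the highest mean rank correlation with Cd74 among 4750 genes outside the members was that of Ifitm1, an interferon-induced membrane protein, at 0.20. The next were S100a6, Ccl4 and Gimap5 at 0.17, and the other 6 of the first 10, Selenom, Pik3cd, Tor1aip1, Ctsc, N4bp2 and Syf2, had 0.15 or 0.16. All these values lie below those of H2-Eb1 (0.31), H2-Aa (0.30) and H2-Ab1 (0.25) with Cd74, and correlations of this size in sparse counts single out no gene.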

How the data were processed

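Per the labels' protocols, single sorted cells were lysed, reverse transcribed by modified Smart-seq2, and 3′ ends were enriched with biotin primers. TopHat, HTSeq and mm10 are named by the submitters' processing notes; for their versions, the strand setting, cell filters, doublet removal and normalization, the sources used here say nothing. The values the authors deposited are scores, in 3 tables: per gene they have mean 0 and SD 1 over 497 cells and are capped at 10. The tables of both HSC2 libraries number their lines without gene names. They were matched to the named table line by line, after 6 blank lines of the named table were dropped, and the match was checked by the joint scaling: all 9901 uncapped genes had a mean over the 3 tables within 1.1e-10 of 0. These scores were treated as log(1 + 10000 × count / total) from which an intercept and 2 cell covariates had been regressed. Undoing this gave whole counts for 11996 of 13278 genes: 100.0000% of 1992590 uncapped values up to 50 lay within 0.01 of a whole number. The 6 members were recovered with no capped value. The recovered genes made up 51.3 to 80.1% of the counts of a cell, and CPM refer to all its counts. The recovery was tested on simulated data.

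Whether molecular identifiers were used is not stated, so counts need not be molecules. No cell was filtered, clustered or called a doublet, and all 497 cell names are distinct. Thinning to 10000 counts left out 1 HPC1, 4 HSC1, 8 HSC2/MPP4, 20 CD48-negative HSC2, 0 MPP2 mix and 1 double-negative cells. Where a count was 0, up to 3 counts were allowed for. The named genes are the 6 members, genes of the lists, and the 10 genes most like the members over libraries and over cells, without predicted, mitochondrial and ribosomal protein symbols; Brd2 and Cd48 were added after values were seen. The lists were class II genes, regulators, processing and turnover, the MIF-CD74 axis, costimulation, MHC class I, interferon gamma response, and dendritic, B cell, macrophage-monocyte, stem cell, lymphoid progenitor and megakaryocyte-platelet markers. List genes whose counts could not be recovered were left out of list counts. Members and lists were chosen with earlier results of these data known. Python 3.11.15, NumPy 2.4.6, SciPy 1.17.1 and pandas 2.3.3 were used.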

Additional observations from a re-analysis of the deposited data

How the results depend on the processing

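The members' log2 ratios, the counts of members past 2-fold and the shares of cells with a Cd74 count were recomputed under alternative settings. Rank correlations and medians within cells were not, and the other gene lists only where a value without 1 cell is given beside them. For the MPP2 mix over double-negative cells, the log2 ratio of Cd74 was 2.12, against 1.57 from the mean of per-cell CPM, 0.48 without each gene's highest cell, 0.48 from the mean of per-cell log2(CPM + 10), 2.95 with 1 CPM added, 2.34 per count of recovered genes and 0.37 without the cell with B cell markers. Its count of members 2-fold higher was 2, against 1 with the mean of per-cell CPM and 0 without the highest cells, with the mean of log2 values, and without the cell with B cell markers. For HSC2/MPP4 over CD48-negative HSC2, the Cd74 ratio of -0.42 became 0.98 with the mean of per-cell CPM, where 3 members were 2-fold higher in place of 0. It became -1.73 without the 2 cells with dendritic markers, where 4 members were 2-fold lower in place of 0, so these settings gave calls in opposite directions. Without the highest cells of both libraries it was -0.62, with 0 members past 2-fold. For CD48-negative HSC2 over double-negative cells, the Cd74 ratio of 3.31 became 2.98 without the highest cells, 4.24 with 1 CPM added, 3.64 per count of recovered genes and 0.94 with the mean of log2 values, where 0 members in place of 4 were 2-fold higher. For HPC1 over HSC1, 1 member in place of 0 was 2-fold lower with 1 CPM added and per count of recovered genes. Without thinning, Cd74 was counted in 53.7% of HPC1, 50% of HSC1, 60.0% of MPP2 mix and 27.6% of double-negative cells, and after thinning to 5000 counts in 15.9% of HSC1 cells. Leaving out cells by their markers and a class II sum of at least 1000 CPM was chosen after the data were seen. It took cells only from the MPP2 mix and HSC2/MPP4, so it could only lower the class II sums of these libraries.

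A mean of log2 values gives little weight to cells with many counts, and a pooled level gives them much; which of these a library's cells call for was not tested. No paired analysis was possible because each group has 1 library. With 1 library per group, differences between groups and between library preparations cannot be told apart.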

Other observations

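In the MPP2 mix, transcripts of the kappa light chain gene Igkc were spread thinly over many cells. Outside the cell with B cell markers, 92 Igkc counts lay in 45 of the other 79 cells, at most 6 in any. Cd74 had 194 counts in 47 of these cells, at most 32 in any.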
